A study of Mus musculus with 10 samples.

Results

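Ligands of the EGF family and the ERBB receptors that keratinocytes use were followed in DMBA/TPA-treated skin of WT and Zfp36ΔARE mice. The members were chosen by gene symbol and are the 7 ligands *Areg*, *Ereg*, *Btc*, *Hbegf*, *Tgfa*, *Egf* and *Epgn* and the 3 receptors *Egfr*, *Erbb2* and *Erbb3*. They are 10 of the 24454 genes in the count table, and all 10 passed the filter on low counts that left 15543 genes to test. RNA was sequenced from nontumoral, full-thickness skin of 5 WT and 5 Zfp36ΔARE mice (labelled KI in the deposited table), 1 library per mouse. All animals were C57BL/6, with littermates as controls, and were 7 weeks old at a single application of 400 nmol of the mutagen DMBA. The phorbol ester TPA, a tumor promoter, was then given at 10 nmol per application, 2 times a week for 20 weeks, to both groups alike. No skin without DMBA and TPA was analysed here. The paper describes the sampled skin as adjacent to papillomas. It reports multiple papillomas in all control mice and a lower, later tumor burden in Zfp36ΔARE mice. Tumor burden therefore differed with genotype, the sample labels do not give it, and its part in the differences was not tested. Zfp36ΔARE is a germline deletion of the AU-rich element in the 3′-UTR of *Zfp36*, so the change is present in every cell type of the skin and not in keratinocytes alone.

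The EGF family ligands are made as membrane-anchored precursors that proteases of the ADAM family cut free. They bind the extracellular part of the receptor EGFR, which then pairs with itself or with the related receptors ERBB2 and ERBB3 and drives keratinocyte growth through the RAS-ERK and PI3K-AKT pathways. ERBB2 has no ligand of its own, and ERBB3 has little kinase activity and recruits PI3K. Tristetraprolin (TTP), the product of *Zfp36*, binds AU-rich elements built on the pentamer ATTTA (written as DNA) and speeds up the decay of the mRNA that holds them. The study asks how TTP controls skin tumor formation. From the Zfp36ΔARE and WT skin it reports lower expression of inflammation and myeloid genes, and it examined EGFR signalling in mice that lack TTP in epidermal cells. The comparison here asks whether the levels of ligands and receptors differed in whole skin in which TTP can accumulate.

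Within the longest annotated 3′-UTR of each gene (GENCODE on GRCm38), 68.9% of the 14408 tested genes with such a UTR held at least 1 ATTTA, with a median of 1 in a median length of 1140 bases. *Areg* held 4 in only 253 bases, which is 15.8 per kilobase, and 0.194% of genes were at least as dense. *Egf* held 5 in 755 bases, a density reached by 2.84% of genes. *Egfr* held 12 in 6303 bases and *Ereg* 9 in 3501 bases, while *Btc*, *Tgfa*, *Hbegf* and *Erbb3* held 4 each in UTRs of 1456 to 3764 bases. *Epgn* and *Erbb2* held 0. The densest window of 30 bases is shown for the 4 members with the most pentamers or the highest density, because these stretches show how differently the motif is packed. The letters are those on the strand of the gene from the GENCODE transcripts, 5′ to 3′, with ATTTA in capitals, and 2 neighbouring pentamers may share an A.
Areg, chr5:91148369-91148398, plus strand, bases 190 to 219 of the UTR: ataATTTATTTAatATTTAagtgttATTTA
Ereg, chr5:91090915-91090944, plus strand, bases 770 to 799: tttagagtATTTAtttttatagggaATTTA
Egf, chr3:129677600-129677629, minus strand, bases 691 to 720: ttgcttgATTTAttttatcctaattATTTA
Egfr, chr11:16916493-16916522, plus strand, bases 4638 to 4667: actttttttattagctATTTActcaATTTA
All 4 pentamers of *Areg* lay in this 1 window, an arrangement of 4 or more in 30 bases that 70 of the 14408 genes (0.486%) had. The other windows held 2 pentamers each, as 19.2% of genes had at least somewhere in the UTR. A match to these letters describes the reference sequence and does not show binding. For *Areg*, the paper itself reports binding of TTP to the AU-rich region of the 3′-UTR in a gel assay with cell extracts. It also reports a more stable *Areg* mRNA in cultured keratinocytes that lack TTP, and an effect of TTP on a reporter that depended on the AU-rich motifs. In epidermal cells sorted from papillomas, the paper reports higher *Areg* where these cells lacked TTP. An EGFR inhibitor lowered the number and size of papillomas in such mice.

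The targeted gene was read first. *Zfp36* had 2051, 2496, 1824, 2377 and 2011 normalized counts (counts scaled by edgeR's TMM factors to the mean effective library size) in WT replicates 1 to 5 and 5781, 5202, 5820, 6134 and 4196 in Zfp36ΔARE replicates 1 to 5, so the groups did not overlap and the transcript was 2.52-fold higher. Library totals ranged from 21638400 to 32583217 counts in WT and from 19595035 to 36419573 in Zfp36ΔARE skin. The defining markers of epidermis were abundant in every library, with 166698 to 340057 summed normalized counts for the 6 basal and 166131 to 418709 for the suprabasal keratinocyte markers. Counts of Y-linked genes were 3349 to 4262 in Zfp36ΔARE replicates 2 to 5 and at most 1 in Zfp36ΔARE replicate 1 and all WT libraries, so that sex and genotype cannot be fully told apart. WT replicates 1 and 3 stood apart from the other WT libraries, with the lowest hair shaft scores and the highest skeletal muscle scores (mean log2(CPM + 1) of the markers of each list). The members' results, and several but not all of the pathway calls that were lost, are given without these libraries as well. In whole skin, fewer cells of a type and less RNA per cell cannot be told apart.

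Of the 10 members, 2 passed an adjusted p of 0.05 in edgeR's quasi-likelihood test, against 34.3% of all genes tested. *Erbb2* was higher in Zfp36ΔARE skin, 1 of 10 members where the background was 15.3%, and *Egf* was lower, 1 of 10 where it was 19.1%. With a fold change over 2 added, only *Egf* passed, where 8.31% of all genes did. The groups of 5 did not overlap in 1 member, *Erbb2*, against 23.1% of all genes. The members were therefore not called more often than genes at large. Their median log2 fold change was 0.26, with -0.03 for the ligands and 0.29 for the receptors, where the median over all genes tested was 0.0076. No ligand was called higher in Zfp36ΔARE skin in this fit.

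**Figure D1:**
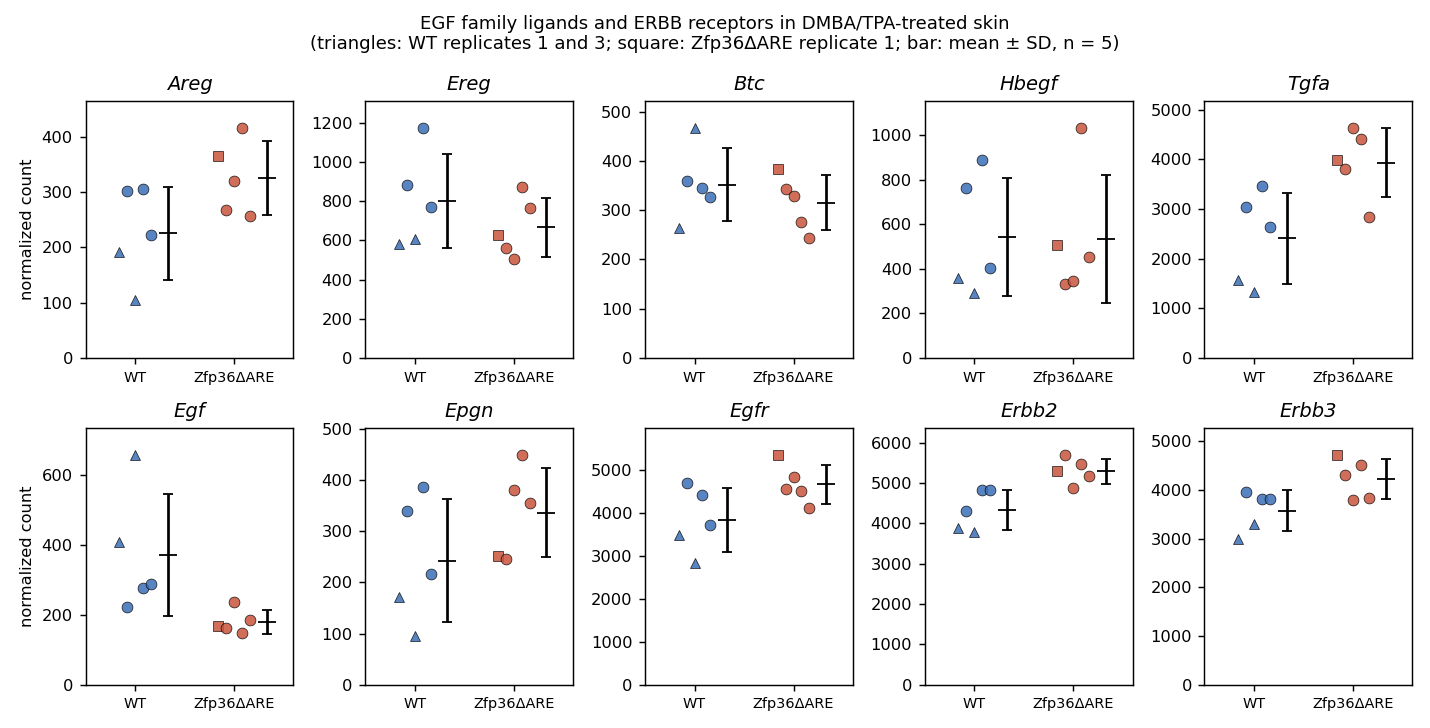
Normalized counts (vertical axes from 0, 1 panel per gene) of the 10 members in each library of WT and Zfp36ΔARE skin. Each point is 1 mouse, bars give the mean ± SD of 5, and the triangles (WT replicates 1 and 3) are the 2 lowest WT points in 8 panels and the 2 highest in the *Egf* panel.

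Per kilobase of the exon length in the deposited table, the receptors and *Tgfa* had the highest levels. In WT skin *Erbb3* stood at 890.5 ± 103 and *Erbb2* at 866 ± 99.8 normalized counts per kilobase (SD, n = 5), then *Egfr* at 595 ± 116. *Tgfa* was the most abundant ligand at 529 ± 203, and *Hbegf*, *Ereg*, *Areg*, *Epgn*, *Btc* and *Egf* followed in this order from 228 down to 77.2. Within 1 SD of each mean, each gene in this order overlapped with the next except *Erbb2* with *Egfr*. In Zfp36ΔARE skin the order was *Erbb2* (1060.1 ± 62.1), *Erbb3* (1053 ± 101), *Tgfa* (865 ± 152), *Egfr* (726 ± 70.8), *Areg* (267 ± 54.9), *Hbegf*, *Epgn*, *Ereg*, *Btc* (110 ± 19.3) and *Egf* (37.5 ± 7.33). Here neighbours were apart by more than their SDs only between *Egfr* and *Areg* and between *Btc* and *Egf*.

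*Tgfa* (Entrez 21802, chr6:86195223-86275719, plus strand) encodes TGF-α, a ligand of EGFR in the epidermis. Its normalized counts were 1575, 3041, 1331, 3459 and 2628 in WT replicates 1 to 5 and 3987, 3810, 4622, 4414 and 2839 in Zfp36ΔARE replicates 1 to 5. Of the 5 Zfp36ΔARE libraries, 4 lay above every WT library, and the groups overlapped through Zfp36ΔARE replicate 5. The log2 fold change was 0.71 (95% interval 0.14 to 1.28), or 1.63-fold, with an adjusted p of 0.0539 that missed the threshold (exact two-sided permutation test on log2(CPM + 1), p = 0.0238, where 5 against 5 can give no less than 0.00794). It passed with limma-voom (adjusted p = 0.0428) and with DESeq2 (0.018). DESeq2 made a larger share of false calls than edgeR on simulated data, but those data followed edgeR's own fit. Over all 24 alternatives the adjusted p of *Tgfa* ran from 0.00653 to 0.918, under 0.05 in 7. WT replicates 1 and 3 had the lowest values, and without both of them the log2 fold change was 0.37 (adjusted p = 0.125).

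*Areg* (Entrez 11839, chr5:91139599-91148432, plus strand) encodes amphiregulin, the ligand with the densest pentamers of the family. Its normalized counts were 192, 301, 105, 306 and 222 in WT and 366, 267, 320, 415 and 257 in Zfp36ΔARE replicates 1 to 5. The Zfp36ΔARE values lay within or above the WT range, with 3 of 5 above every WT library and 0 below it. The log2 fold change was 0.52 (95% interval -0.05 to 1.10, adjusted p = 0.138, exact permutation p = 0.0635), on 86 to 488 counts per library before scaling. Across the 24 alternatives the adjusted p ran from 0.0255 to 0.89. Without WT replicates 1 and 3 it was 0.23 on the log2 scale (adjusted p = 0.393).

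*Epgn*, *Ereg* and *Btc* lie beside *Areg* on chromosome 5. *Epgn* (Entrez 71920, chr5:91027464-91035215) encodes epigen, a ligand of low affinity for EGFR. It had 172, 340.1, 95.2, 387 and 216 normalized counts in WT and 251, 246, 380, 449 and 355 in Zfp36ΔARE skin, a log2 fold change of 0.46 (95% interval -0.28 to 1.21, adjusted p = 0.297). WT replicates 1 and 3 were again the lowest, and without them the log2 fold change was 0.09. The WT libraries spread over 4.07-fold, the widest spread of any member in that group. *Ereg* (Entrez 13874, chr5:91074622-91093646) encodes epiregulin, a ligand that also acts through ERBB4. It had 582, 883, 606, 1171 and 771 normalized counts in WT and 626, 563, 503, 873 and 765 in Zfp36ΔARE skin. Its log2 fold change was -0.27 (95% interval -0.74 to 0.19, adjusted p = 0.328) and the groups overlapped broadly. *Btc* (Entrez 12223, chr5:91357261-91402994, minus strand) encodes betacellulin, which binds EGFR and ERBB4. It had 264, 359, 466, 346 and 326 normalized counts in WT and 384, 344, 328, 276 and 244 in Zfp36ΔARE skin, a log2 fold change of -0.15 (95% interval -0.51 to 0.20, adjusted p = 0.472). *Btc* was the 1 member in which WT replicates 1 and 3 fell on opposite sides of the other WT libraries. The 4 neighbouring genes thus did not share 1 direction of difference, and none of the 4 passed the test.

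*Hbegf* (Entrez 15200) encodes heparin-binding EGF-like growth factor, which keratinocytes make on wounding. Its normalized counts were 359, 761, 293, 887 and 405 in WT and 506, 332, 345, 1029 and 454 in Zfp36ΔARE skin. High and low libraries occurred in both groups, with spreads of 3.03-fold in WT and 3.1-fold in Zfp36ΔARE skin. The log2 fold change was -0.03 with a 95% interval from -0.89 to 0.84 (adjusted p = 0.963), the widest of the 10 members. It was -0.37 without WT replicates 1 and 3 (adjusted p = 0.561), and in the same fit *Ereg* was at -0.50 (0.115) and *Btc* at -0.12 (0.581).

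*Egf* (Entrez 13645, chr3:129677565-129755316, minus strand) encodes epidermal growth factor, for which the family is named. It had 407, 221, 655, 277 and 288 normalized counts in WT and 167, 161, 237, 147 and 186 in Zfp36ΔARE skin. Of the Zfp36ΔARE libraries, 4 lay below every WT library, and replicate 3 lay above WT replicate 2. *Egf* fell by 1.04 on the log2 scale (95% interval -1.65 to -0.42), to 0.487 of the WT level, with an adjusted p of 0.0198 (exact two-sided permutation p = 0.0159). The call held with each library left out in turn, with a log2 fold change of -1.18 to -0.73, the smallest without WT replicate 3. Without WT replicates 1 and 3 together, the 2 highest libraries, it was -0.54 and no longer passed (adjusted p = 0.0566, in a range over the 24 alternatives of 0.00176 to 0.989). *Egf* was also the scarcest member, with 110 to 537 counts per library before scaling, and 9.82% of its exon bases overlap with genes on the opposite strand. Of those, *6330410L21Rik* had 97 counts summed over the 10 libraries against 2685 for *Egf*, and a strand setting of the counting is not stated in the sources used here. Such overlaps took 3.42% of the exon bases of *Ereg*, 1.82% of *Tgfa*, 0.173% of *Erbb2* and 0 of the other members.

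The 3 receptors varied less between mice than the ligands, with 1.28 to 1.65-fold between the lowest and highest WT library where the ligands had 1.76 to 4.07-fold. *Erbb2* (Entrez 13866, chr11:98412470-98437716, plus strand) had 3880, 4313, 3785, 4817 and 4839 normalized counts in WT and 5297, 5692, 4869, 5469 and 5165 in Zfp36ΔARE skin. Each Zfp36ΔARE library lay above each WT library, though the lowest of the first (4869) and the highest of the second (4839) were close. *Erbb2* rose by a log2 fold change of 0.29 (95% interval 0.11 to 0.48), or 1.22-fold, with an adjusted p of 0.0248 (exact two-sided permutation p = 0.00794, the smallest possible). Leaving out WT replicate 1 or Zfp36ΔARE replicate 2 ended the call (adjusted p = 0.0595 and 0.0605), and without WT replicates 1 and 3 the log2 fold change was 0.18 (adjusted p = 0.109, in a range over the alternatives of 0.00396 to 0.646).

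*Egfr* (Entrez 13649, chr11:16752203-16918158, plus strand), the receptor of all 7 ligands, had 3479, 4704, 2844, 4425 and 3709 normalized counts in WT and 5345, 4567, 4830, 4502 and 4113 in Zfp36ΔARE skin. The 2 lowest libraries were WT replicates 1 and 3, and the groups overlapped. The log2 fold change was 0.29, as large as that of *Erbb2* but with a 95% interval from -0.0022 to 0.57 and an adjusted p of 0.108. *Erbb3* (Entrez 13867, chr10:128567523-128589652, minus strand) had 2996, 3968, 3295, 3820 and 3821 normalized counts in WT and 4719, 4304, 3794, 4510.2 and 3844 in Zfp36ΔARE skin. Its log2 fold change of 0.24 (95% interval 0.03 to 0.45) missed the threshold with edgeR (adjusted p = 0.069) and passed with DESeq2 (adjusted p = 0.0409). Over all alternatives the adjusted p of *Erbb3* ranged from 0.0143 to 0.926. The larger share of false calls by DESeq2 on simulated data came from data that followed edgeR's own fit. Without WT replicates 1 and 3 the log2 fold change was 0.13 for both *Egfr* and *Erbb3* (adjusted p = 0.391 and 0.291). All 3 receptors thus had differences of one sign and nearly one size, of which 1 passed.

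**Figure D2:**
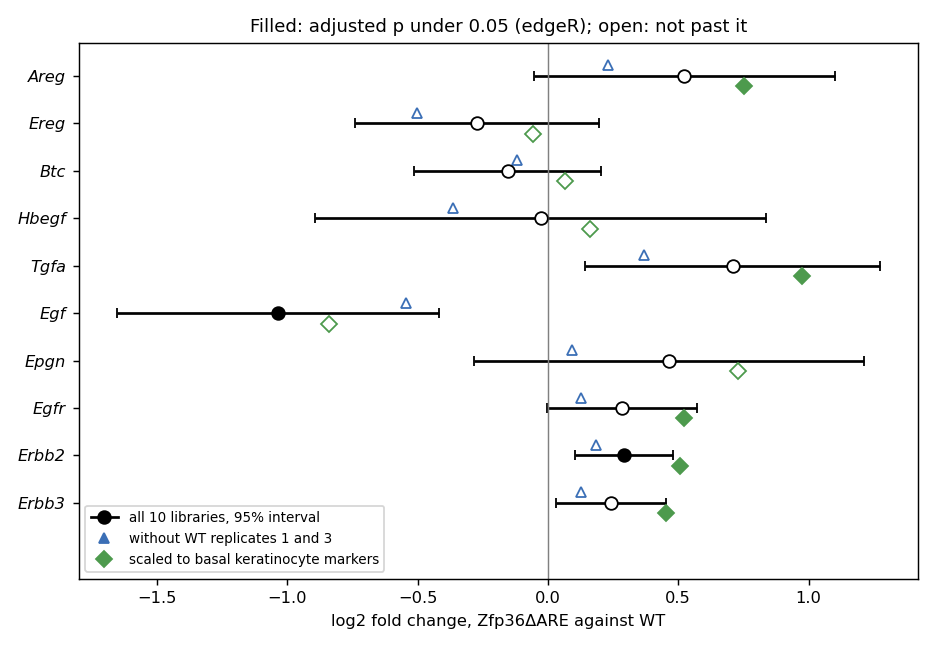
Log2 fold change of each member in Zfp36ΔARE against WT skin (horizontal axis), with 95% intervals for all 10 libraries (black), without WT replicates 1 and 3 (blue triangles) and with counts scaled to basal keratinocyte markers (green diamonds). Filled symbols passed an adjusted p of 0.05: *Egf* and *Erbb2* with all libraries, 0 members without the 2 WT libraries, and *Areg*, *Tgfa*, *Egfr*, *Erbb2* and *Erbb3* with the keratinocyte scaling.

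As a share of the summed ligand level per kilobase, *Tgfa* made up 32.2%, 36.7%, 29.2%, 36.7% and 40.8% of the 7 ligands in WT replicates 1 to 5 and 47.2%, 51.4%, 52.6%, 41.4% and 40.4% in Zfp36ΔARE skin. The share of *Ereg* was 13.2% ± 1.05 in WT and 8.75% ± 2.06 in Zfp36ΔARE skin, and that of *Egf* 6.22% ± 4.67 and 2.07% ± 0.51 (SD, n = 5 each). *Areg* held 12.4% ± 2.33 and 14.3% ± 1.14. The sum itself was 1478 ± 465 normalized counts per kilobase in WT and 1863 ± 314 in Zfp36ΔARE skin, with ranges of 1004 to 2074 and 1544 to 2347 that overlapped. The lowest sums, 1075 and 1004, were those of WT replicates 1 and 3. A share depends on the other 6 ligands, and no share was tested.

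**Figure D3:**
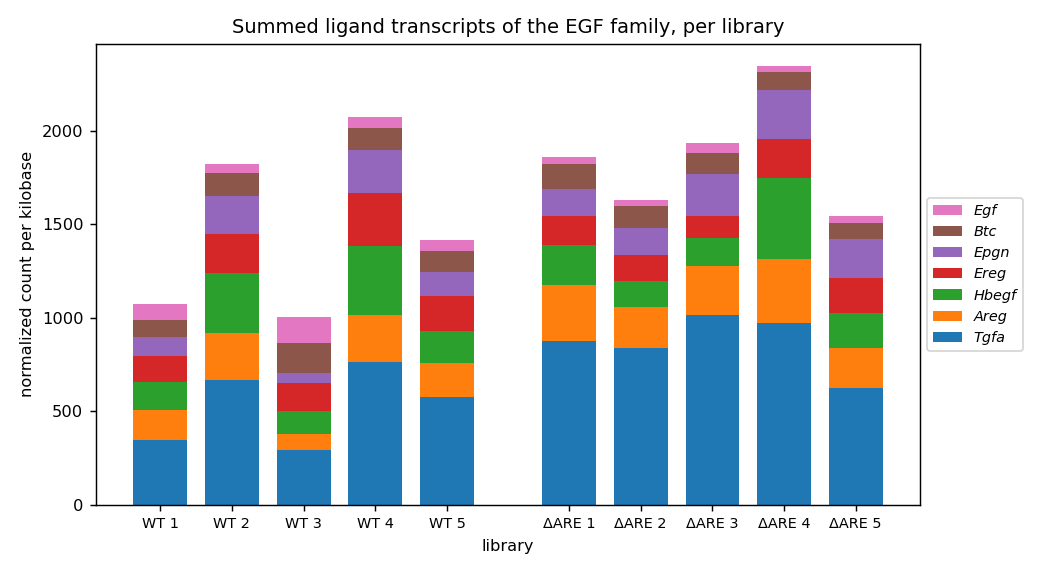
Normalized counts per kilobase (vertical axis) of the 7 ligands stacked for each library, WT on the left and Zfp36ΔARE (ΔARE) on the right. *Tgfa* is the largest part of every bar, and WT replicates 1 and 3 are the 2 lowest bars.

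Some members differed together with the makeup of the biopsies. WT replicates 1 and 3 were both below the other 3 WT libraries in 8 of 10 members and both above them in 1, *Egf*. The hair shaft score was 5.33 and 2.75 in these 2 libraries, 7.74 to 8.15 in the other WT libraries and 8.78 to 10.1 in Zfp36ΔARE skin. The summed level of the 7 hair shaft markers ran from 2026 to 66230 normalized counts in WT and from 97140 to 291715 in Zfp36ΔARE libraries. Of these 7 markers, 2 were called higher, where 15.3% of all genes were, and none was at 0 in any library. The skeletal muscle score was 11.5 and 12.4 in WT replicates 1 and 3, 10.2 to 11.1 in the other WT libraries and 9.40 to 10.3 in Zfp36ΔARE skin. The 5 muscle markers summed to 169061 to 834668 normalized counts in WT and 99113 to 216922 in Zfp36ΔARE skin. Of these 5 markers, 4 were called lower, where 19.1% of all genes were. The 3 libraries with the highest muscle scores, WT replicates 3, 1 and 5, had the 3 highest values of *Egf* and the 3 lowest of *Areg* and *Tgfa*. With the hair shaft score as a covariate, *Egf* had a log2 fold change of -0.28 (adjusted p = 0.642) and *Erbb2* of 0.13 (adjusted p = 0.551), in a fit that called 32 genes in all. With the muscle score in its place, an alternative chosen after seeing the data, they were 0.01 and 0.11, in a fit that called 2 genes in all. The part of either tissue in the differences cannot be told apart from genotype in these libraries, since the hair shaft scores of the groups did not overlap and the muscle scores overlapped only between WT replicate 2 and Zfp36ΔARE replicate 3.

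**Figure D4:**
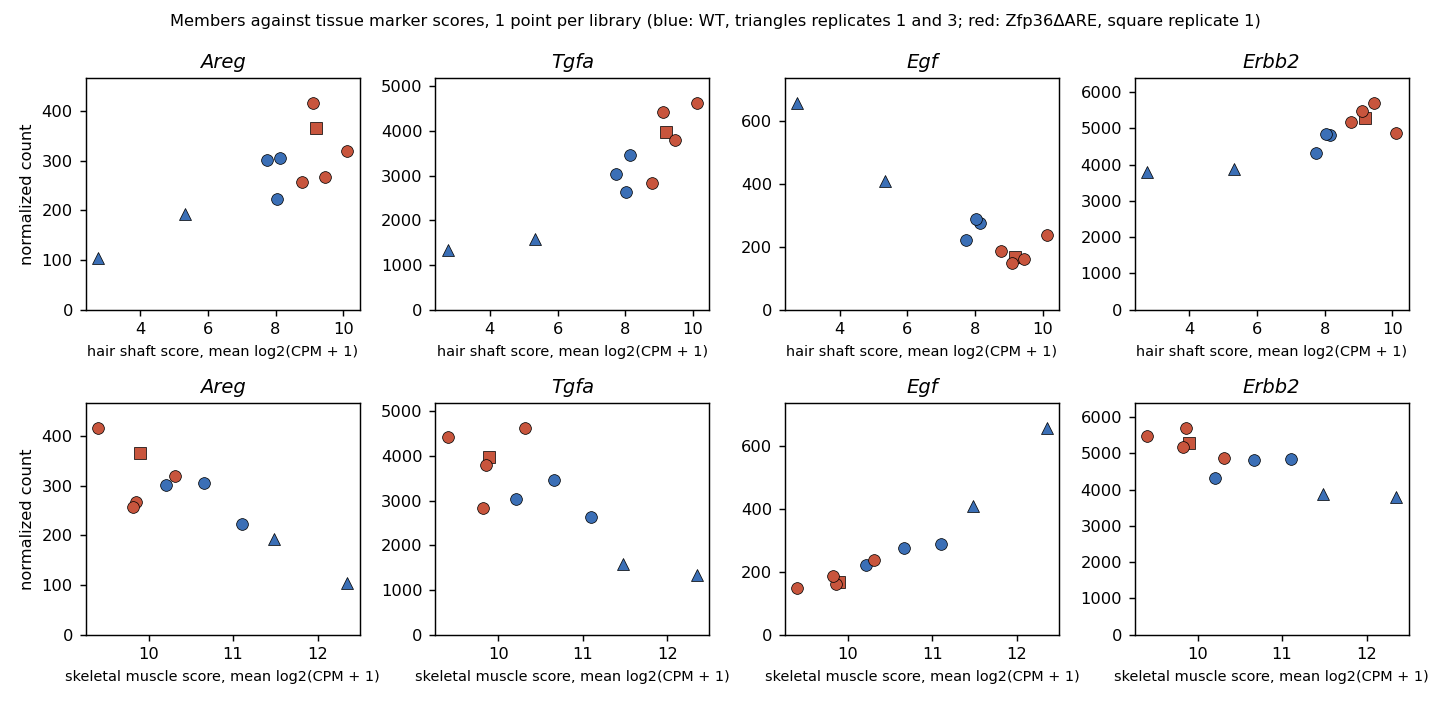
Normalized counts of *Areg*, *Tgfa*, *Egf* and *Erbb2* (vertical axes) against the hair shaft score (upper row) and the skeletal muscle score (lower row), in mean log2(CPM + 1), 1 point per library. *Egf* is highest and the other 3 are lowest in WT replicates 1 and 3 (triangles), which have hair shaft scores of 5.33 and 2.75, and Zfp36ΔARE replicate 1 (square) lies among the other Zfp36ΔARE points (circles).

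Other cell types of the biopsy differed too. All 7 macrophage, 5 mast cell and 5 endothelial markers were lower in Zfp36ΔARE skin, as were 4 of 5 adipocyte, 3 of 5 fibroblast and 2 of 4 Schwann cell markers, and all 5 melanocyte markers were higher. Over all genes tested, 19.1% were called lower and 15.3% higher, which the marker counts here have to be read against. The part of these cell types in the members' levels was not tested. Among keratinocyte markers, 2 of 6 basal ones (*Itga6* and *Itgb4*) were lower and 1 of 5 tested suprabasal ones (*Ivl*) was higher, while 0 of 4 stress keratins, 0 of 4 T cell and 0 of 2 tested neutrophil markers were called and 1 of 5 sebaceous gland markers was lower. The 5 inner root sheath markers of the hair follicle had a median log2 fold change of 1.36 and 0 calls (adjusted p = 0.0708 to 0.104), and their score was 7.69 to 11.80 in WT and 11.84 to 12.7 in Zfp36ΔARE libraries, without overlap. The basal keratinocyte score was 9.50 ± 0.19 in WT and 9.30 ± 0.26 in Zfp36ΔARE skin (SD, n = 5 each). With counts scaled to these 6 markers instead of by TMM, the median of all genes shifted to 0.22, the share of called genes that were higher went from 44.5% to 70.6%, and 5 members were called higher. In that scaling the log2 fold changes were 0.97 for *Tgfa* (adjusted p = 0.00653), 0.75 for *Areg* (0.0255), 0.52 for *Egfr* (0.0264), 0.51 for *Erbb2* (0.0245) and 0.45 for *Erbb3* (0.0295). Relative to the shifted median these were 0.75, 0.53, 0.30, 0.29 and 0.24, close to the values by TMM, and *Egf* stood at -1.06 relative to it and was not called (adjusted p = 0.0995). *Btc* and *Hbegf* turned to 0.07 and 0.16 before that median was taken off and were -0.15 and -0.06 after it. With the basal keratinocyte score as a covariate, 6 members passed, *Areg*, *Tgfa*, *Hbegf*, *Erbb2* and *Erbb3* higher and *Egf* lower.

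Zfp36ΔARE replicate 1, the Zfp36ΔARE mouse without Y-linked counts, lay within the range of the other 4 Zfp36ΔARE libraries in 7 of 10 members and above it in *Btc*, *Egfr* and *Erbb3*. Set alone against the 5 WT libraries, it gave log2 fold changes of -1.14 for *Egf*, 0.29 for *Erbb2*, 0.73 for *Tgfa* and 0.70 for *Areg*, with 0 genes called in that fit. Without it, *Egf* and *Erbb2* were the members called, as in the full set.

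The neuregulins and ERBB4 make up the other arm of the receptor family, and 3 of these 5 genes had enough counts to test. *Nrg2*, a neuregulin ligand, had 99.5, 193, 62.2, 187 and 260.0 normalized counts in WT and 378, 480, 569, 354 and 334 in Zfp36ΔARE skin. It rose without overlap by a log2 fold change of 1.39 (SE 0.33, adjusted p = 0.0136). *Nrg4*, a ligand of ERBB4, had 294, 233, 405, 218 and 329 normalized counts in WT and 168, 177, 123, 151 and 157 in Zfp36ΔARE skin. It fell without overlap by 0.93 on the log2 scale (SE 0.18, adjusted p = 0.00746). *Nrg1*, a ligand of ERBB3, was at 65.4 ± 34.5 and 122 ± 37.4 (SD, n = 5 each; log2 fold change 0.89, adjusted p = 0.104), and *Nrg3* and *Erbb4* had 8 and 17 counts over all libraries. Without WT replicates 1 and 3, *Nrg2* and *Nrg4* remained called (0.99 and -0.74 on the log2 scale, adjusted p = 0.0168 and 0.0227).

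Of the 9 sheddases and their regulators, 4 were lower in Zfp36ΔARE skin and 0 higher, where 19.1% of all genes were lower and 15.3% higher, with a median log2 fold change of -0.07. *Adam17*, the main protease that frees *Tgfa* and *Areg* products, fell by 0.25 on the log2 scale (SE 0.062, adjusted p = 0.0146), from 2705 to 3068 normalized counts in WT to 2204 to 2616 in Zfp36ΔARE skin, without overlap. *Adam8*, a protease of myeloid cells among others, fell by 0.79 (SE 0.21), *Adam12* by 0.66 (SE 0.17) and *Adam19* by 0.50 (SE 0.10). Without WT replicates 1 and 3, *Adam17* (adjusted p = 0.0546), *Adam8* (0.0994) and *Adam12* (0.0699) were not called, and *Adam19* was (0.0418). With keratinocyte scaling *Adam17* was at -0.055 (adjusted p = 0.795), or -0.27 relative to the shifted median of all genes. *Adam12* (adjusted p = 0.0712) and *Adam19* (0.165) were not called either, and stood at -0.72 and -0.54 relative to that median. The called markers of macrophages, mast cells, endothelium, adipocytes, skeletal muscle and fibroblasts were lower as well, and those of melanocytes and hair shaft were higher. The part of any of these cell types in the difference was not tested.

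Of 11 negative regulators, 2 were higher and 1 lower, where 15.3% of all genes were higher and 19.1% lower. *Rnf41*, whose product is a ubiquitin ligase for ERBB3, rose from 976 to 1466 normalized counts in WT to 1904 to 2415 in Zfp36ΔARE skin (log2 fold change 0.69, SE 0.12, adjusted p = 0.00542). *Ptpn2*, a tyrosine phosphatase, rose by 0.25 (SE 0.062), and its adjusted p was 0.0501 without WT replicates 1 and 3. *Cblb*, a ubiquitin ligase of activated receptors, fell by 0.21 (SE 0.063). Under the keratinocyte scaling it was at 0.01, or -0.21 relative to the shifted median of all genes. Its call was lost without WT replicate 2 or 3 or Zfp36ΔARE replicate 2 or 3 (adjusted p = 0.059 to 0.066). Of 21 adaptors and signal transducers, 2 were higher and 4 lower. *Gab2*, a docking protein upstream of PI3K, fell from 466 to 879 normalized counts in WT to 260 to 405 in Zfp36ΔARE skin (log2 fold change -0.91, SE 0.17). *Pik3r1*, the regulatory subunit of PI3K, fell by 0.53 (SE 0.093), and was not called with keratinocyte scaling (adjusted p = 0.151). Relative to the shifted median it stood at -0.54 in that scaling. The kinase gene *Braf* rose by 0.76 (SE 0.18) and *Hras*, the gene in which DMBA makes its typical mutation, by 0.47 (SE 0.11), both without overlap.

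Of 14 transcripts that ERBB and ERK signalling induce, 1 was called higher and 0 lower. Over all genes tested, 15.3% were called higher and 19.1% lower. The 1 that passed was *Dusp5*, a phosphatase that acts on nuclear ERK. It had 244, 540, 278, 549 and 463 normalized counts in WT and 941, 646, 813, 867 and 413 in Zfp36ΔARE skin, and the groups overlapped through Zfp36ΔARE replicate 5. It rose by a log2 fold change of 0.83 (SE 0.28, adjusted p = 0.0423). The call was lost in 7 of the 10 fits that left out 1 library (all but WT replicates 2 and 4 and Zfp36ΔARE replicate 5, adjusted p = 0.0584 to 0.0885) and with no filter on low counts (0.0539). Without WT replicates 1 and 3 the log2 fold change was 0.51 (adjusted p = 0.169). The median of the list was 0.25, against 0.0076 for all genes. Over the 5 lists, 16 of the 58 tested genes passed (6 higher, 10 lower), against 34.3% of all genes. Without WT replicates 1 and 3 the number that passed was 9, and with the hair shaft or the skeletal muscle score as a covariate it was 0.

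**Figure D5:**
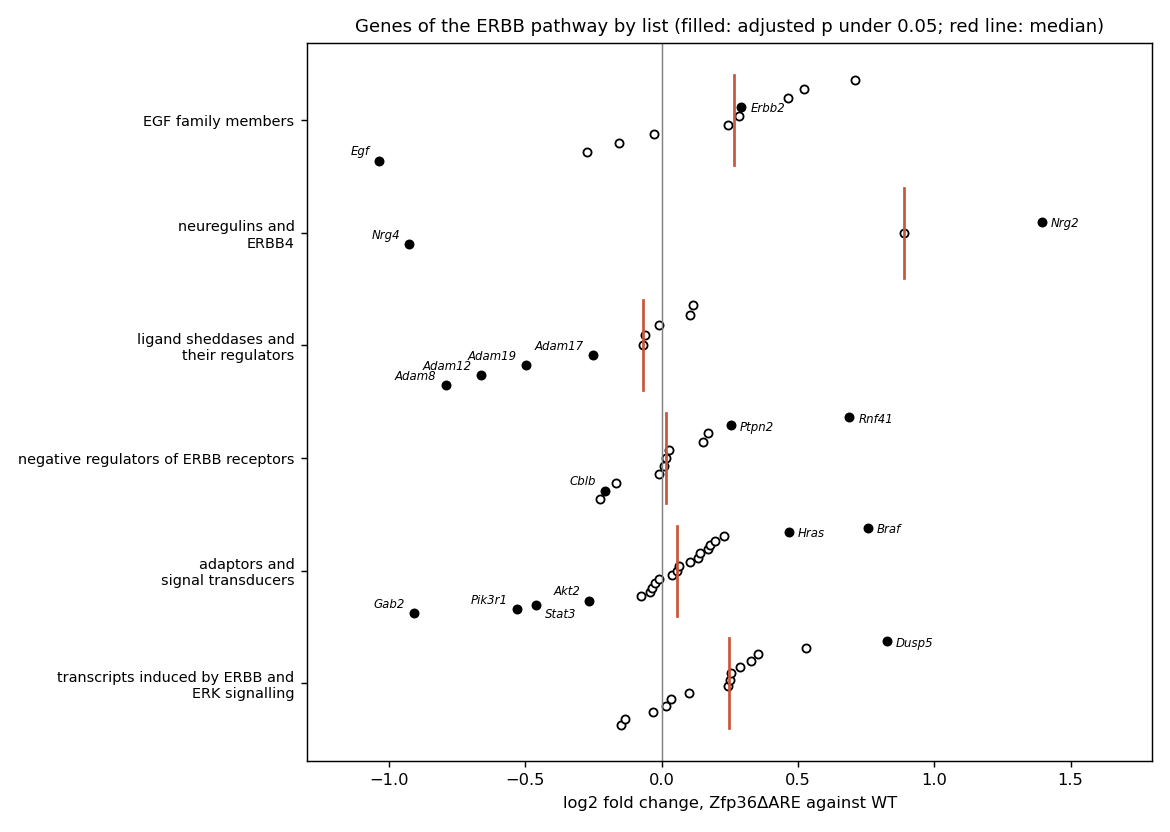
Log2 fold change in Zfp36ΔARE against WT skin (horizontal axis) of each tested gene of the members and of 5 lists of the ERBB pathway, 1 point per gene, with the list's median as a red line. Filled and named points passed an adjusted p of 0.05, among them 4 of the 9 sheddases and their regulators and *Dusp5* in the list of induced transcripts. These 4 were all lower, where 19.1% of all genes were.

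The genes whose log2(CPM + 1) followed each member most closely over the 10 libraries were also listed, as a description over libraries that share genotype and tissue makeup. *Areg* was most like *Dnase2a* (Pearson's r = 0.98), *Bnc1* and *Ier2*, and *Tgfa* most like *Plk3* (0.99), *Pla2g2e* and *Tmem229b*. For *Egf* they were *Pkia* (0.99), *Cmbl* and *B230118H07Rik*, and for *Epgn* *Fosl1* (0.96), *Rabif* and *Brix1*. *Hbegf* followed *Ada* (0.96), *Rab31* and *Slc26a9*, *Ereg* followed *Ifi202b* (0.95), *Trex2* and *Slc6a20a*, and *Btc* followed *Abca3* (0.94), *Pygl* and *Mxd4*. For the receptors they were *Bmpr1a* (0.99), *Suco* and *Slc35g1* for *Egfr*, *Endov* (0.98), *Ythdf1* and *Ripk4* for *Erbb2*, and *Crb3* (0.97), *Atp11a* and *Tmem102* for *Erbb3*. No member was among the 3 most alike genes of another, because members were left out of the search.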

How the data were processed

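Total RNA of full-thickness skin from 5 WT and 5 Zfp36ΔARE mice was sequenced, 1 library per mouse. Per the study's methods and the submitters' processing notes, the authors kept reads of mean quality 20 or more, aligned these to mm10 with STAR 2.5.2b, counted them per gene with featureCounts (Subread 1.5.0-p1) and deposited raw counts without normalization. Handling of multi-mapping reads and of strand is not given in the sources used here. Rows without a gene name (2, with 7.38e-05% of the counts) were left out.

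On these deposited counts, edgeR 4.0.16 (R 4.3.3) gave TMM factors, the filterByExpr filter and the quasi-likelihood test of genotype with robust dispersions and Benjamini-Hochberg adjustment over 15543 genes (median biological coefficient of variation 14.9%). DESeq2 1.42.0 and limma-voom 3.58.1 were alternatives. Single genes were also compared by exact two-sided permutation tests. The script was tested on counts simulated from edgeR's own dispersions, with far fewer changed genes than were called here. DESeq2 made a larger share of false calls than edgeR there. That setting favours edgeR's model and cannot rank these tools on the skin libraries. Depth was 19595035 to 36419573 counts per library. Replicate numbers name mice and do not pair them.

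The members and lists were chosen with earlier results of these data known. Named pathway genes are up to 4 per list that passed, by size of change, and every gene of lists of 5 or fewer. Alike genes needed a mean of 100 normalized counts.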

Additional observations from a re-analysis of the deposited data

Results flagged for a closer look

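Among 48 groups of 5 libraries (10 members and 14 pathway genes in each genotype), 1 library lay far from its group. Chance at 1 in 20 groups gives about 2.4 among 48, so 1 is no more than chance gives. *Hbegf* in Zfp36ΔARE replicate 4 reached 1029 normalized counts, where the remaining 4 Zfp36ΔARE libraries had 332 to 506. Its distance to the nearest of them was 0.751 of the range of its group.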

How the results depend on the processing

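Of the 240 single-member values under alternatives, 198 kept their direction and their side of the threshold and 18 changed sign (with 1 call lost and 1 gained among them). Of those that kept their sign, 10 lost the call and 14 gained it. The number of members past an adjusted p of 0.05 was 2, and it was 4 with DESeq2, 5 with keratinocyte scaling, 6 with the basal keratinocyte score as a covariate, 1 to 4 with each library left out (1 without WT replicate 1 or Zfp36ΔARE replicate 2, 4 without WT replicate 2), and 0 without WT replicates 1 and 3, without Zfp36ΔARE replicates 2 to 5, or with the hair shaft or skeletal muscle score as a covariate. The number also past a fold of 2 was 1, and it was 0 with limma-voom, keratinocyte scaling, the replicate block and the 4 settings just named, and 0 to 1 with each library left out (0 without WT replicate 1 or 3 or Zfp36ΔARE replicate 2 or 4). The number of pathway genes called was 16, and it was 8 with the replicate block, 9 without WT replicates 1 and 3, 0 without Zfp36ΔARE replicates 2 to 5 and under the hair or muscle covariate, and 12 to 16 with each library left out. Upper-quartile scaling made 38.7% of called genes higher, where TMM gave 44.5%.

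Signs changed as follows on the log2 scale, with no member past the threshold on the changed side except *Hbegf* with the basal keratinocyte covariate. With the hair shaft covariate *Areg* was -0.10, *Epgn* -0.30 and *Egfr* -0.023. With the muscle covariate *Areg* was -0.27, *Epgn* -0.48, *Egfr* -0.058, *Btc* 0.058 and *Egf* 0.0054. With the basal keratinocyte covariate *Ereg* was 0.034 and *Hbegf* 0.52 (adjusted p = 0.0491). With keratinocyte scaling *Btc* was 0.067, *Hbegf* 0.16 and *Cblb* 0.0063. Relative to the shifted median of all genes in that scaling, *Btc* was -0.15, *Hbegf* -0.06 and *Cblb* -0.21. Without Zfp36ΔARE replicates 2 to 5 *Btc* was 0.13. *Hbegf* ran from -0.40 to 0.22 with each library left out, positive at 0.13 and 0.22 without WT replicates 2 and 4 and at 0.10, 0.09 and 0.02 without Zfp36ΔARE replicates 2, 3 and 5. The cause was not tested.

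With the replicate block, 2740 genes were called where 5335 were without it, and *Egf* (-0.96, adjusted p = 0.0302) and *Erbb2* (0.30, adjusted p = 0.0485) stayed called. Deviations of same-numbered libraries correlated at -0.19 to 0.09, and 0 of 10 libraries correlated best with its own number. Standard errors on the log2 scale were 0.084 to 0.13 for the receptors and 0.16 to 0.39 for the ligands, the largest for *Hbegf*.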
